A study of Mus musculus with 12 samples.

Results

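Mfsd2a was examined as a single gene in aortic tissue of CD-1 mice. It was found by its symbol in the platform annotation, and 1 probe set of the 41345 named it, with none naming it beside other genes; it is 1 of 22180 genes that could be followed in this way. It was selected on its measured values, namely its difference between CM-695 and vehicle mice, so that difference is described without a test.

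The CM-695 group held 6 female mice injected intraperitoneally with 80 mg/kg of CM-695, an inhibitor of both histone deacetylase 6 (HDAC6) and phosphodiesterase 9, at 2 h and again at 1 h before they were killed. The vehicle group held 6 female mice injected with saline, once according to the series design. CD-1 is an outbred stock, and the sources used here state neither the animals' age nor the hour of collection. Each animal gave 1 array after perfusion with buffered saline.

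Mfsd2a encodes a sodium-dependent carrier of the major facilitator superfamily that moves lysophosphatidylcholine carrying long-chain fatty acids, above all docosahexaenoic acid, across the plasma membrane. It is best known from the endothelium of the blood-brain barrier, where it brings this lipid into the brain and holds down transport by caveolae. In mouse it is also an inducible gene outside the brain, rising in liver with fasting and in brown fat with cold. The mouse aorta is surrounded by brown fat, so samples of the vessel can hold fat cells as well as endothelium, smooth muscle and fibroblasts.

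The transcription start of Mfsd2a lies on the minus strand of chromosome 4. Its promoter window is shown because the gene is set below against genes of the clock, of glucocorticoid response and of fat. The window runs from 250 bases before to 50 bases after the start (RefSeq, GRCm38.p6, chr4:122961139-122961438, minus strand, read 5′ to 3′ along the gene), and capitals mark the only match to the motifs searched.
Mfsd2a promoter: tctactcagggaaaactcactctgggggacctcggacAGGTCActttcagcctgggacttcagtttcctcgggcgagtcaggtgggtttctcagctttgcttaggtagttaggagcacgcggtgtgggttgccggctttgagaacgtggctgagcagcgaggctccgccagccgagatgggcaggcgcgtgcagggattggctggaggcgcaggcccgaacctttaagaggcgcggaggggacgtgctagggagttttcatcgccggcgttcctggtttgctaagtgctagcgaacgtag
The match is AGGTCA, the core that nuclear receptors such as PPAR and REV-ERB read, 213 bases before the start; 16.3% of 32851 promoter windows of the same length hold it on either strand. Searched on both strands, the window held no E-box CACGTG (7.15% of windows), no D-box TTATGTAA or TTACGTAA (1.06%), no TGACG of the cyclic AMP response element (20.8%) and no AGAACA of the glucocorticoid receptor element (19.0%). These letters say nothing on binding in these mice. In the same windows Fkbp5 held CACGTG, 169 bases before its start, and Ucp1 held TGACG 147 bases and AGGTCA 14 bases before its start, while Dbp held none of the motifs. Of 2 Arntl windows, the second held AGGTCA, 31 bases after its start.

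All 6 CM-695 mice had less Mfsd2a signal than any of the 6 vehicle mice. Its RMA log2 values in CM-695 mice 1 to 6 were 5.27, 5.43, 5.41, 7.30, 5.50 and 7.14, against 8.61, 9.68, 8.99, 8.82, 8.44 and 7.99 in vehicle mice 1 to 6. The treated mice did not form an even spread: mice 1, 2, 3 and 5 lay within 0.23 of each other. On their arrays these low values stood at percentiles 53.0, 56.1, 55.7 and 57.1 among genes. Values so near the median gene do not separate weak expression from none, which also limits the fold difference and the treated correlations below. Mice 4 and 6 stood 1.64 above the highest of these low values. Mouse 4 remained 0.69 below vehicle mouse 6, the lowest of the vehicle group. The means were 6.01 ± 0.94 in CM-695 mice and 8.75 ± 0.57 in vehicle mice (SD, n = 6 each), which is 6.71-fold lower after CM-695 (log2 difference -2.75, SE 0.39). In bulk tissue, fewer cells that express a gene and less RNA per cell cannot be told apart.

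**Figure D1:**
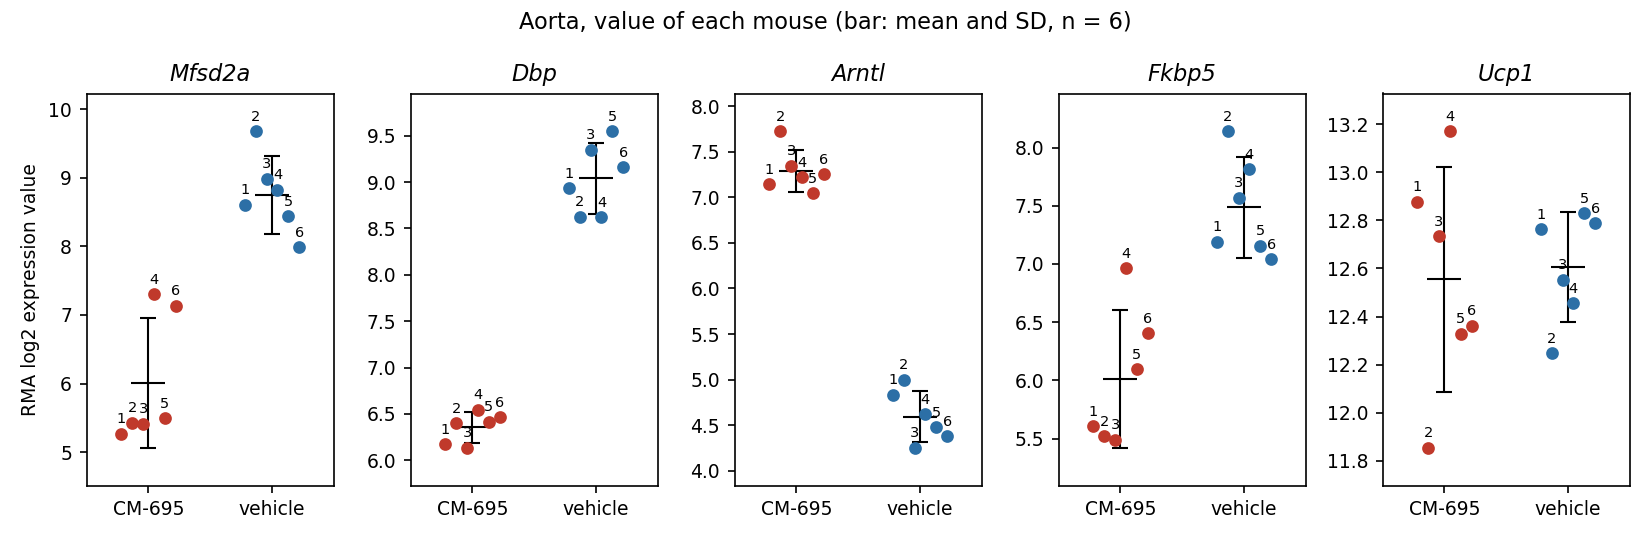
RMA log2 values of Mfsd2a, Dbp, Arntl, Fkbp5 and Ucp1 in each of 6 CM-695 mice (red) and 6 vehicle mice (blue), numbered by mouse; bars are means with SD and each panel has its own axis. Mfsd2a and Fkbp5 are lower and more spread out after CM-695, with mice 4 and 6 highest, while Ucp1 overlaps between the groups.

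This was the largest negative difference among the 22180 genes. The genes next to it were the clock output gene Dbp at -2.68 (SE 0.16), the sarcolipin gene Sln of atrial muscle at -2.16 (SE 0.69), the titin cap gene Tcap at -2.07 (SE 0.18), the atrial light chain gene Myl7 at -1.89 (SE 0.50) and the period gene Per3 at -1.86 (SE 0.14). For comparison, 95% of genes lay between -0.40 and 0.36, with a median of 0.02. In 0.636% of genes every CM-695 mouse was below every vehicle mouse, and 0.144% of genes were lower past an adjusted p of 0.05 in limma (0.155% of probe sets in either direction).

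Mfsd2a also varied more between mice of the same group than most genes did. Its SD of 0.94 in CM-695 mice was exceeded by 57 genes (0.257%), and its SD of 0.57 in vehicle mice by 337 genes (1.52%). Median SDs over all genes were 0.21 in CM-695 mice and 0.20 in vehicle mice. A gene picked for the largest mean difference is more likely to have a large spread, and Mfsd2a ranked 20 by limma p, so this spread is a description too.

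Within each group Mfsd2a was set against 4 genes: Dbp, a transcription factor gene driven directly by the clock, Arntl, which encodes the clock activator BMAL1, Fkbp5, a glucocorticoid-induced co-chaperone of the glucocorticoid receptor, and Ucp1, the uncoupling protein of brown fat. That made 8 relations, each tested by exact two-sided permutation over all 720 pairings of 6 mice and adjusted over the 8. No correlation over both groups together is given, because the groups form separate clusters.

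Fkbp5 went with Mfsd2a in both groups. Fkbp5 values in CM-695 mice 1 to 6 were 5.60, 5.52, 5.49, 6.96, 6.09 and 6.40, against 7.19, 8.14, 7.57, 7.81, 7.16 and 7.04 in vehicle mice 1 to 6. CM-695 mice 4 and 6 were highest for both genes among the treated animals, and vehicle mouse 2 was highest and vehicle mouse 6 lowest for both among the controls. Pearson's r was 0.91 in CM-695 mice (exact permutation p = 0.0069, adjusted p = 0.0278) and 0.92 in vehicle mice (exact permutation p = 0.0042, adjusted p = 0.0278). Spearman's rho was 0.83 (exact permutation p = 0.0583, adjusted p = 0.117) in CM-695 mice and 0.94 (p = 0.0167, adjusted p = 0.0667) in vehicle mice. Without the 2 animals farthest from the Fkbp5 median, r was 0.53 in CM-695 mice, where these were mice 4 and 6, and 0.92 in vehicle mice, without mice 2 and 4. The treated relation thus rests on mice 4 and 6. With 1 mouse left out, the call was lost in 3 of 6 cases in CM-695 mice (without mouse 4, 5 or 6, exact permutation adjusted p from 0.0833 to 0.111) and in 4 of 6 in vehicle mice (without mouse 1, 2, 5 or 6, adjusted p from 0.0667 to 0.222). Fkbp5 itself differed between the groups by -1.47 (SE 0.27, limma adjusted p = 0.0550). Fkbp5 was named for comparison with earlier results known, so its agreement with Mfsd2a is not independent evidence.

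Dbp had its own large difference, and its relation with Mfsd2a did not pass in either group. Its values were 6.17, 6.40, 6.14, 6.55, 6.42 and 6.46 in CM-695 mice 1 to 6, against 8.93, 8.63, 9.35, 8.62, 9.55 and 9.16 in vehicle mice 1 to 6. The groups did not overlap, CM-695 mice were close together at 6.35 ± 0.16 (SD, n = 6), and vehicle mouse 2, the highest for Mfsd2a, was among the lowest 2 for Dbp. Pearson's r was 0.75 in CM-695 mice (exact permutation p = 0.0736, adjusted p = 0.147) and -0.53 in vehicle mice (p = 0.275, adjusted p = 0.367). Spearman's rho was 0.94 in CM-695 mice (exact permutation p = 0.0167, adjusted p = 0.0667) and -0.43 in vehicle mice (p = 0.419, adjusted p = 0.663). Without the 2 mice farthest from the Dbp median r was 0.88 in CM-695 mice and -0.58 in vehicle mice. No test was made of whether the Dbp relation differs between the groups.

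Arntl was higher in every CM-695 mouse than in any vehicle mouse, and its relation with Mfsd2a inside the groups did not pass. It measured 7.14, 7.72, 7.35, 7.22, 7.05 and 7.25 in CM-695 mice 1 to 6, against 4.84, 4.999, 4.25, 4.62, 4.48 and 4.38 in vehicle mice 1 to 6. Pearson's r was -0.16 in CM-695 mice (exact permutation p = 0.789, adjusted p = 0.789) and 0.57 in vehicle mice (p = 0.239, adjusted p = 0.367), with Spearman's rho of -0.09 (p = 0.919) and 0.37 (p = 0.497). Without the 2 mice farthest from the Arntl median, r was 0.0014 in CM-695 mice and 0.70 in vehicle mice.

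Ucp1, the defining gene of brown fat, overlapped between the groups. It measured 12.88, 11.85, 12.73, 13.17, 12.33 and 12.36 in CM-695 mice 1 to 6, against 12.76, 12.25, 12.55, 12.45, 12.83 and 12.79 in vehicle mice 1 to 6. The difference was -0.05 (SE 0.20, limma adjusted p = 0.961). Within vehicle mice Ucp1 ran opposite to Mfsd2a, with r of -0.90 (exact permutation p = 0.0139, adjusted p = 0.0370) and rho of -0.89 (p = 0.0333, adjusted p = 0.0889). The call was lost whichever of the 6 vehicle mice was left out (exact permutation adjusted p from 0.0667 to 0.333). In CM-695 mice r was 0.34 (exact permutation p = 0.508, adjusted p = 0.581) and rho 0.09 (p = 0.919, adjusted p = 0.919). Without the 2 mice farthest from the Ucp1 median r was -0.77 in vehicle mice and -0.60 in CM-695 mice, and after a repeated quantile normalization the vehicle value was -0.74 (exact permutation adjusted p = 0.181). Whether the relation differs between the groups was not tested.

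**Figure D2:**
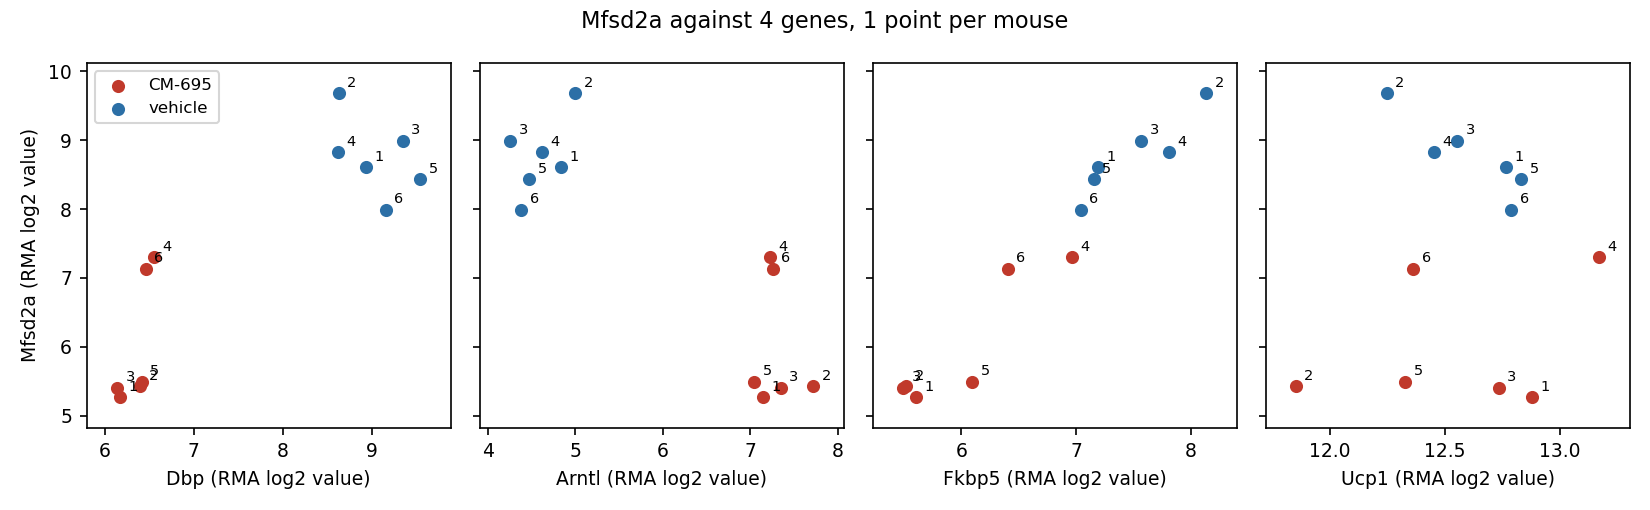
Mfsd2a (vertical axis) against Dbp, Arntl, Fkbp5 and Ucp1 (horizontal axes), all as RMA log2 values, 1 numbered point per mouse, CM-695 in red and vehicle in blue. Only the Fkbp5 panel shows both groups rising together (r of 0.91 in CM-695 and 0.92 in vehicle mice), and in the Ucp1 panel the vehicle mice slope downward (r of -0.90).

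Likeness to Mfsd2a was then measured over all genes, as Pearson's r of the 12 mice after each group mean had been removed. Fkbp5 came first, at 0.91, with 0 of 22179 other genes above it, and 95% of genes lay between -0.62 and 0.59. Within single groups it was not first: 133 genes had a higher r than Fkbp5 in CM-695 mice and 125 in vehicle mice. Among the 11089 genes brighter than the median gene, the next were Ttc4, a co-chaperone of HSP90 and HSP70 (0.89), Sprtn, a protease for DNA-protein crosslinks (0.88), Sdc4, the cell surface proteoglycan syndecan 4 (0.85), and the zinc finger gene Zfp410 (0.85). Trim3, a ubiquitin ligase, and Pspc1, a paraspeckle protein, each stood at 0.84, as did Satb1, a chromatin organiser. These values are a description over 12 mice, and all genes were read from the same tissue samples. In CM-695 mice 4 and 6 and in vehicle mouse 2, all 8 genes stood above their group means. Those mice had the largest positive Mfsd2a deviations (1.29, 1.13 and 0.92). The 8 genes were picked for their r over the same deviations, so this agreement largely follows from the selection.

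None of the 8 genes passed the threshold in limma, and their group differences were smaller than that of Mfsd2a. Mfsd2a was chosen for its difference, the lowest of all genes, so that comparison says nothing about the 8. Sdc4 differed by -0.80, with 7.92, 8.24 and 9.08 as lowest, median and highest values in CM-695 mice and 8.69, 9.15 and 9.61 in vehicle mice (limma adjusted p = 0.178). Trim3 differed by -0.33 and Sprtn by -0.18, while Ttc4 (0.06), Zfp410 (-0.07), Pspc1 (-0.09) and Satb1 (-0.02) were nearly level. Klf15, a Kruppel-like factor gene induced by glucocorticoids and chosen after its values were seen, had an r of 0.83 and differed by -0.72. Over all genes 31 had an r to Mfsd2a above 0.8 and 48 one below -0.8, against 12 and 29 of the brighter ones. At the other end of the brighter genes stood the clone-named gene 4930412C18Rik (-0.91), the zinc finger gene Zfp882 (-0.88), Aspscr1, which tethers glucose transporter vesicles (-0.87), and Actr1a, a dynactin subunit (-0.85).

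**Figure D3:**
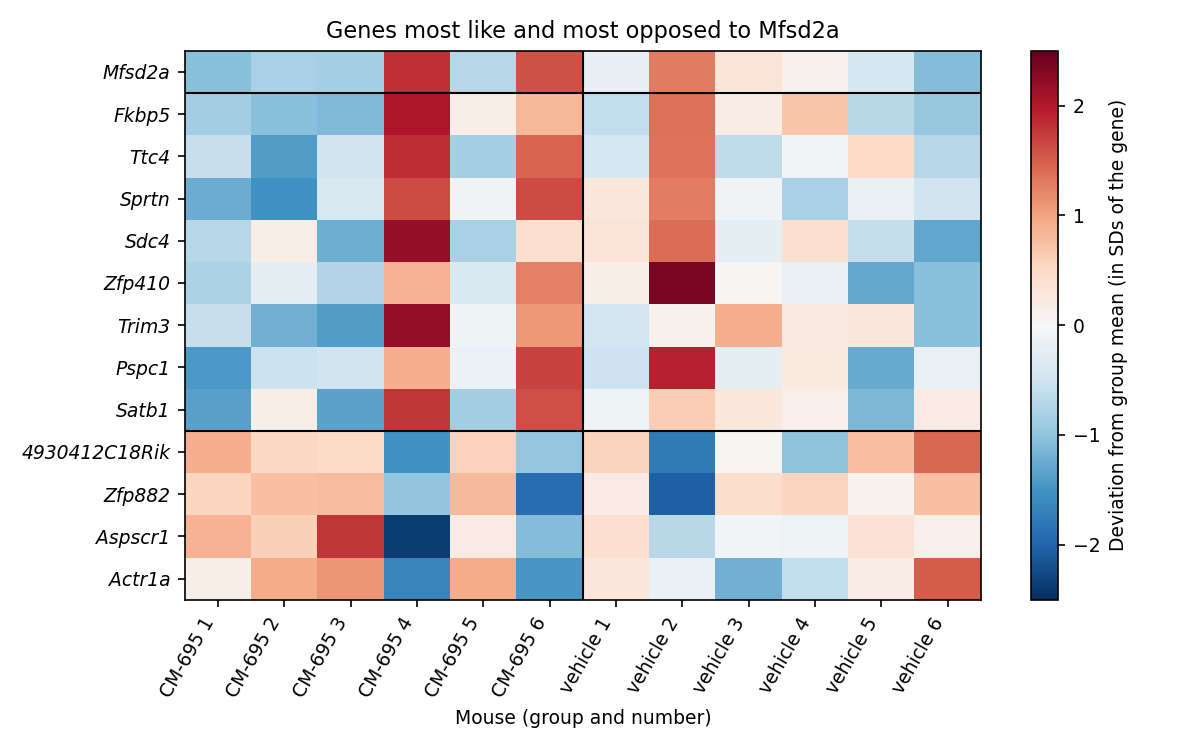
Deviation of each mouse from its group mean, in SDs of the gene, for Mfsd2a (top row), the 8 genes with the highest r to it (Fkbp5 to Satb1) and the 4 with the lowest (4930412C18Rik to Actr1a) among the 11089 brighter genes, with CM-695 mice left of the line and vehicle mice right of it. CM-695 mice 4 and 6 and vehicle mouse 2 are above the group mean in all upper rows and below it in all 4 lower ones. The genes were picked for their r over these same deviations, so this pattern largely follows from the selection.

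Genes known to be induced by glucocorticoids were next compared as a list. Of 25 measured members 7 fell after CM-695 and 0 rose (limma adjusted p under 0.05, against 0.144% of all genes lower), and the median difference was -0.51 against 0.02 over all genes. The zinc-binding metallothionein gene Mt1 fell by 0.85 (SE 0.09, limma adjusted p = 0.000986), Nfkbia, which holds NF-kB in the cytoplasm, by 0.91 (SE 0.11, adjusted p = 0.00282), the period gene Per1 by 0.99 (SE 0.13, adjusted p = 0.00604) and the mTORC1 inhibitor gene Ddit4 by 1.44 (SE 0.19, adjusted p = 0.00767). With the cardiac marker mean as a covariate Mt1 (adjusted p = 0.0530 in limma), Ddit4 (0.0755) and Per1 (0.112) no longer passed, nor did Nfkbia (0.0745), Per1 (0.0800) and Ddit4 (0.116) with the replicate block. These falls were already known when the list was drawn up. The order of mice inside the groups was read from the same tissue samples, so it is a description too. The median r of the 25 members to Mfsd2a was 0.35, against -0.02 over all genes. The 12 smooth muscle markers had the same median, 0.35, with 0 of them above 0.5. Within vehicle mice alone their median r was 0.74, against 0.58 for the glucocorticoid list. Within CM-695 mice it was 0.21, against 0.27. Of the glucocorticoid members 9 were above 0.5, among them Fkbp5, which had been named with earlier results known. The share of all genes above 0.5 is not given, so this count has no background to be read against. Negative r values belonged to Pik3r1 (-0.47), Gadd45b (-0.06), Angptl4 (-0.06) and Mt2 (-0.02). Chosen after their values were seen, the cell cycle inhibitor gene Cdkn1a stood at 0.79, the EGFR inhibitor gene Errfi1 at 0.74, the Kruppel-like factor gene Klf9 at 0.73 and the kinase gene Sgk1 at 0.67. Cdkn1a, which followed Mfsd2a from mouse to mouse, was not lower after CM-695 (difference 0.37, SE 0.17, limma adjusted p = 0.534). Mt1 (0.33) and Nfkbia (0.35) were lower in 6 of 6 CM-695 mice but followed Mfsd2a loosely.

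Clock genes were read in the same way, and no test compared their list with the glucocorticoid list. Of 19 measured members 9 fell and 2 rose (against 0.0225% of all genes higher), with a median difference of -0.61. Their median r to Mfsd2a within groups was 0.0010, and 2 members were above 0.5, again without a share of all genes to set beside. Per3 fell by 1.86 (SE 0.14, limma adjusted p = 6.28e-05) and had an r of -0.21, and the PAR bZIP factor gene Tef fell by 1.59 (SE 0.12, limma adjusted p = 7.32e-05) with an r of 0.29. The 2 members above 0.5, chosen after their values were seen, were Nfil3, a repressor that opposes Dbp at the same sites (0.81), and the deubiquitinase gene Usp2 (0.59). Nfil3 had 6.54, 6.63 and 6.99 as lowest, median and highest values in CM-695 mice and 5.85, 6.16 and 6.50 in vehicle mice, a difference of 0.54 (SE 0.12, limma adjusted p = 0.137). Nfil3 was thus higher in 6 of 6 CM-695 mice while Mfsd2a was lower, although the mice of each group were ordered alike. Per1 belongs to both the clock and the glucocorticoid lists.

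Targets of cyclic AMP signalling, which drives Mfsd2a in mouse liver and brown fat, included 1 gene that fell among 19 measured and 0 that rose, against 0.144% lower and 0.0225% higher over all genes. An unadjusted limma p under 0.05 was reached by 6 of the 19, of which 5 were lower and 1 higher, against 9.10% of all genes. Nr4a3, an orphan nuclear receptor gene, fell by 1.61 (SE 0.27, limma adjusted p = 0.0341), and its r to Mfsd2a was 0.67. Its lowest, median and highest values were 5.07, 5.71 and 5.93 in CM-695 mice and 6.51, 7.20 and 8.26 in vehicle mice, with no overlap. This call was lost in 11 of the alternatives (limma adjusted p from 0.0597 to 0.362). The related receptor gene Nr4a2 had a difference of -1.08 (SE 0.20, limma adjusted p = 0.0585) and passed in 4 of the alternatives (adjusted p from 0.0285 to 0.0493). The kinase gene Sik1 differed by -0.96 (SE 0.25, adjusted p = 0.212) and Fosb by -0.58 (SE 0.16, adjusted p = 0.245). The median of the list was -0.13.

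Fasting and PPAR targets belong to the other known route to Mfsd2a in mouse liver. Of 23 measured members 0 rose and 0 fell past the threshold, where 0.0225% of all genes rose and 0.144% fell. An unadjusted limma p under 0.05 was reached by 4, against 9.10% of all genes, and the median was 0.02. The lipoprotein lipase inhibitor gene Angptl4 had 9.42, 9.97 and 10.38 as lowest, median and highest values in CM-695 mice, against 8.26, 8.70 and 9.64 in vehicle mice, a difference of 1.09 (SE 0.26, limma adjusted p = 0.145). Txnip, a thioredoxin inhibitor, differed by 0.39 (SE 0.15), the lipid droplet gene Plin2 by 0.42 (SE 0.18) and its relative Plin4 by -0.33 (SE 0.14), with adjusted p between 0.453 and 0.517. Angptl4 also stands in the glucocorticoid list.

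Differences of the other carriers of this family ran from -0.28 to 0.48 with a median of 0.06. Among 17 relatives and lysolipid carriers 0 passed the threshold in limma, against 0.144% of all genes lower and 0.0225% higher. With shares this low, 0 calls in a short list says little about its members, here and for the lists below. An unadjusted p under 0.05 was reached by 2, against 9.10% of all genes. Mfsd12, which acts in lysosomal cysteine import, had 6.28, 6.50 and 6.88 as lowest, median and highest values in CM-695 mice and 5.90, 6.09 and 6.18 in vehicle mice. Its difference was 0.48 (SE 0.10, limma adjusted p = 0.113), with 6 of 6 treated mice above the vehicle range (against 0.442% of all genes). Mfsd4a differed by -0.28 (SE 0.09, adjusted p = 0.344) and Mfsd6 by -0.26 (SE 0.13, adjusted p = 0.581). The closest relative, Mfsd2b, which exports sphingosine 1-phosphate from red cells and platelets, measured 5.10 ± 0.13 in CM-695 mice and 5.04 ± 0.18 in vehicle mice (SD, n = 6 each), and Spns1, the lysosomal exporter of lysophospholipids, 6.38 ± 0.13 and 6.35 ± 0.10; both were chosen after their values were seen. Spns2, the endothelial sphingosine 1-phosphate exporter, differed by -0.11 (SE 0.12, adjusted p = 0.828).

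Enzymes that make or break down lysophospholipids did not pass either (0 of 23 in limma, median 0.03). An unadjusted p under 0.05 was reached by 4, against 9.10% of all genes. Gpcpd1, which cleaves glycerophosphocholine, had 6.45, 7.16 and 7.40 as lowest, median and highest values in CM-695 mice and 7.49, 7.82 and 8.01 in vehicle mice. The groups did not overlap, and the difference was -0.70 (SE 0.15, limma adjusted p = 0.117). With the adipocyte marker mean as a covariate it was -0.76 (SE 0.09, adjusted p = 0.00603). Lpl, lipoprotein lipase, differed by -0.61 (SE 0.22, adjusted p = 0.424), the lysophospholipase D gene Gdpd1 by -0.38 (SE 0.15, adjusted p = 0.471) and the phospholipase A2 gene Pla2g6 by 0.25 (SE 0.11, adjusted p = 0.505). The endothelial lipase gene Lipg, chosen after its values were seen, overlapped fully, at 5.33 ± 0.28 in CM-695 mice and 5.49 ± 0.35 in vehicle mice (SD, n = 6 each).

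Enzymes that put a fatty acid back onto lysophospholipids, which act after uptake by Mfsd2a, numbered 14. In limma 0 passed and 2 had an unadjusted p under 0.05, against 9.10% of all genes (median 0.02). Lpcat2, a lysophosphatidylcholine acyltransferase, had 4.63, 4.75 and 5.10 as lowest, median and highest values in CM-695 mice and 3.99, 4.46 and 4.63 in vehicle mice, a difference of 0.41 (SE 0.12, limma adjusted p = 0.296). Values this close to the array medians do not separate weak expression from none. Agpat2, the lysophosphatidic acid acyltransferase of fat cells, differed by 0.51 (SE 0.22), Lpcat3 by 0.25 (SE 0.15) and Agpat3, which favours docosahexaenoic acid, by 0.20 (SE 0.17), with limma adjusted p between 0.520 and 0.766.

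Genes that make and activate polyunsaturated fatty acids, the cargo of Mfsd2a, leaned upward without passing. Of 12 measured, 10 were above 0, with a median of 0.07, where 44.7% of all genes were below 0. In limma 0 passed and 3 had an unadjusted p under 0.05, against 9.10% of all genes. The elongase gene Elovl5 differed by 0.33 (SE 0.13, limma adjusted p = 0.459), Elovl2, which makes the precursors of docosahexaenoic acid, by 0.23 (SE 0.10, adjusted p = 0.522) and Elovl4 by 0.21 (SE 0.09, adjusted p = 0.516). Acsl6, the synthetase that activates docosahexaenoic acid in brain and chosen after its values were seen, measured 4.85 ± 0.12 in CM-695 mice and 4.84 ± 0.15 in vehicle mice (SD, n = 6 each). Of 16 genes of fatty acid uptake and binding, 0 passed in limma and 3 had an unadjusted p under 0.05 (9.10% of all genes did), at a median of 0.04. Fabp3 differed by 0.25 (SE 0.09), the transporter gene Slc27a2 by -0.75 (SE 0.31), Lrp1 by -0.32 (SE 0.15) and Fabp5 by 0.66 (SE 0.31), with limma adjusted p between 0.442 and 0.552. Among the carriers and the lists of supply, reacylation and polyunsaturated fatty acids, the lowest difference was the -0.70 of Gpcpd1, against -2.75 for Mfsd2a. Mfsd2a was chosen for its difference, the lowest of all genes, so every listed gene had to lie above it.

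**Figure D4:**
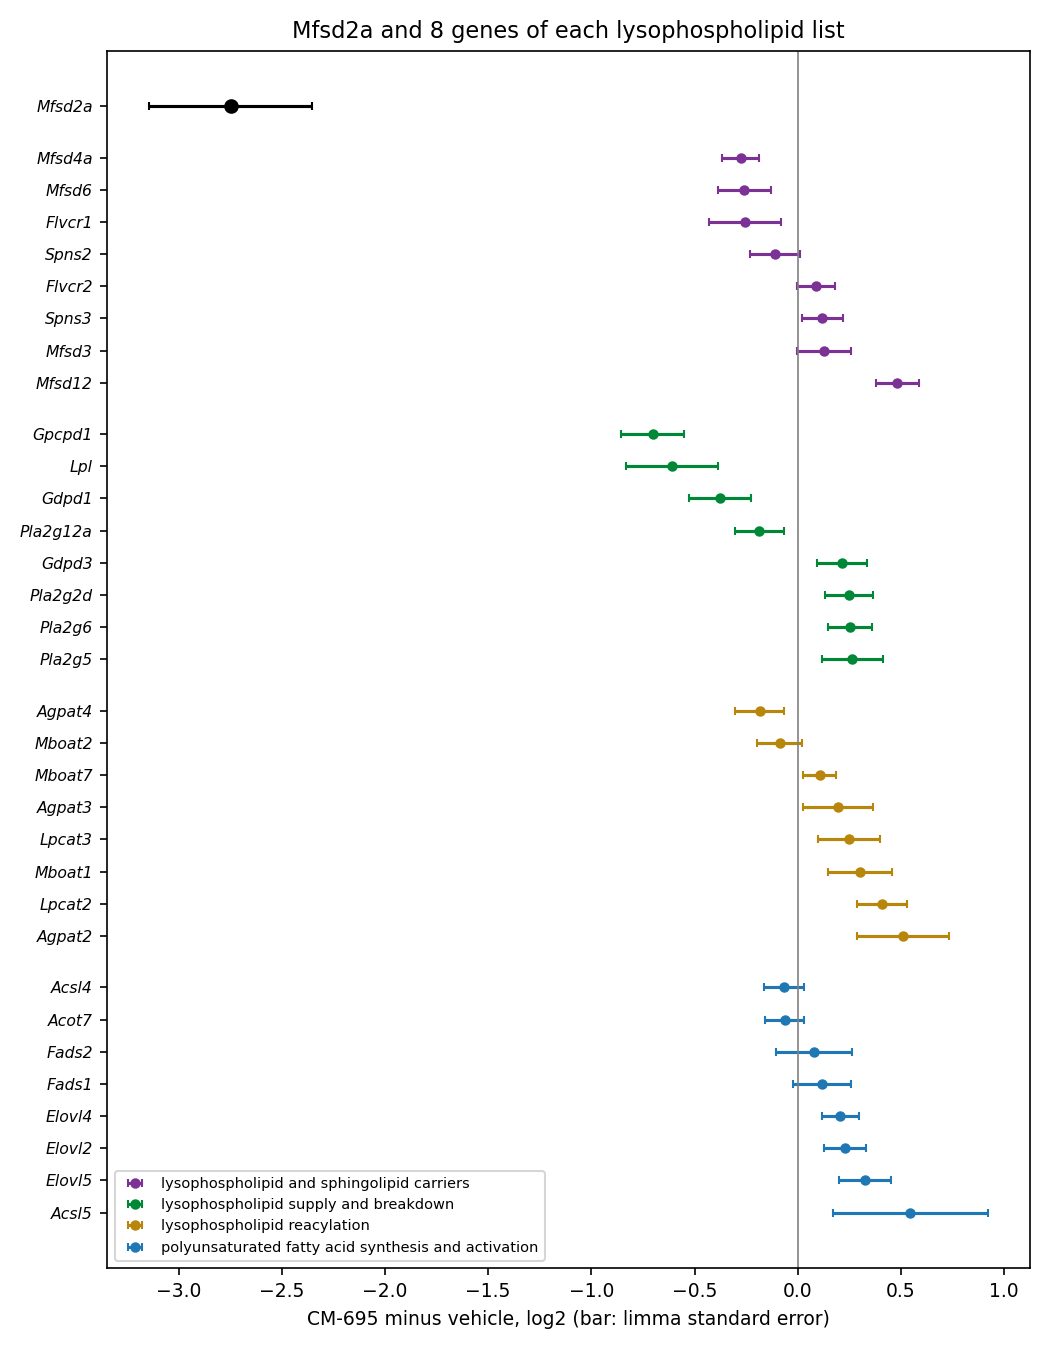
Difference CM-695 minus vehicle on the log2 scale with limma's standard error for Mfsd2a (black) and for the 8 genes with the smallest p in each of 4 lists of lipid-handling genes (coloured by list). Mfsd2a stands at -2.75, and the other genes lie between -0.70 and 0.55. Mfsd2a was chosen for its difference, the lowest of all genes, so the others had to lie above it.

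Markers of endothelium, the cell type in which the carrier is best known, had a median near 0. Of 18 endothelial markers 0 passed in limma. An unadjusted p under 0.05 was reached by 5, with 3 higher and 2 lower, against 9.10% of all genes. The median was -0.01, and all 18 markers were brighter than the median gene. Their mean per mouse ran from 7.30 to 7.66 in CM-695 mice and from 7.28 to 7.60 in vehicle mice. Sox18, a transcription factor gene of vessels, had 5.96, 6.49 and 7.06 as lowest, median and highest values in CM-695 mice and 5.08, 5.65 and 5.95 in vehicle mice, a difference of 0.88 (SE 0.19, limma adjusted p = 0.123). Emcn, endomucin, differed by -0.45 (SE 0.16), Egfl7 by 0.31 (SE 0.12) and Ptprb, a phosphatase of endothelial junctions, by -0.29 (SE 0.12), with adjusted p between 0.409 and 0.496. With the endothelial marker mean as a covariate Mfsd2a differed by -2.76 (SE 0.41).

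Genes that mark the blood-brain barrier gave 0 calls in limma among 21, with 3 unadjusted p under 0.05, against 9.10% of all genes (median -0.03). The mean of these genes ran from 5.64 to 5.90 in CM-695 mice and from 5.79 to 5.86 in vehicle mice. The lactate transporter gene Slc16a1 differed by 0.74 (SE 0.28, limma adjusted p = 0.441), Itm2a by -0.42 (SE 0.18, adjusted p = 0.507), the Wnt effector gene Lef1 by 0.29 (SE 0.13, adjusted p = 0.532) and the amino acid transporter gene Slc7a5 by -0.42 (SE 0.20, adjusted p = 0.551). Of 13 genes of caveolae and vesicle transport, which Mfsd2a restrains in brain vessels, 0 passed and 0 had an unadjusted p under 0.05. Caveolin 1, Cav1, measured 9.81 ± 0.13 in CM-695 mice and 9.69 ± 0.07 in vehicle mice (SD, n = 6 each), and the limma adjusted p of this step of 0.12 (SE 0.08) was 0.713.

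No fat marker passed the threshold. The 14 brown fat genes had a median difference of 0.0032 and the 14 general adipocyte genes one of 0.05. Each list had 0 calls in limma and 2 unadjusted p under 0.05, against 9.10% of all genes. Adipocyte means ran from 9.42 to 10.44 in CM-695 mice and from 9.79 to 10.17 in vehicle mice, and CM-695 mouse 2 was the lowest. With the adipocyte mean as a covariate Mfsd2a differed by -2.73 (SE 0.41). Within the brown fat list Dio2, the deiodinase that brown fat raises with cyclic AMP, came nearest to Mfsd2a. Dio2 had 5.98, 6.98 and 8.06 as lowest, median and highest values in CM-695 mice, against 7.17, 7.97 and 8.71 in vehicle mice. Dio2 differed by -0.95 (SE 0.35, limma adjusted p = 0.432), and its r to Mfsd2a was 0.79 over 12 mice. The coactivator gene Ppargc1a differed by -0.46 (SE 0.26, adjusted p = 0.630) with an r of 0.16.

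Heart muscle markers moved with the groups, and their values stand here beside Mfsd2a. Of 13 markers 0 passed in limma and 10 had an unadjusted p under 0.05, against 9.10% of all genes, with a median of -1.67. The atrial gene Myl7 differed by -1.89 (SE 0.50, limma adjusted p = 0.212), the troponin gene Tnni3 by -1.67 (SE 0.49, adjusted p = 0.287) and cardiac actin, Actc1, by -1.60 (SE 0.50, adjusted p = 0.325). Their mean was 5.84, 6.85, 8.13, 6.21, 7.63 and 7.31 in CM-695 mice 1 to 6, against 8.20, 8.87, 7.11, 8.25, 8.90 and 8.29 in vehicle mice 1 to 6. CM-695 mice 3, 5 and 6 lay inside the vehicle range, with Mfsd2a at 5.41, 5.50 and 7.14, and vehicle mouse 3 had the lowest vehicle mean with Mfsd2a at 8.99. With this mean as a covariate Mfsd2a differed by -2.89 (SE 0.55). With it, probe sets past the threshold numbered 13, against 64 without it, and lower list members 6, against 16.

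Markers of the other cell types gave no calls. Of 12 smooth muscle, 11 fibroblast, 10 pericyte, 8 hepatocyte, 9 alveolar type 2 and 10 macrophage markers, 0 passed in limma. An unadjusted p under 0.05 was reached by 0, 5, 0, 2, 0 and 1, against 9.10% of all genes. Median differences were -0.27, -0.39, -0.10, 0.34, 0.01 and 0.02 in the same order, and 11 of 11 fibroblast markers were below 0. Liver markers were high in CM-695 mouse 5, whose albumin gene Alb, chosen after its values were seen, measured 10.72 and whose hepatocyte mean was 7.40, against 5.04 to 6.13 in the other CM-695 mice and 5.26 to 5.72 in vehicle mice. Mfsd2a in mouse 5 was 5.50, among the low values. CM-695 mouse 4 came next, with Alb at 7.87 and a hepatocyte mean of 6.13, both above every vehicle mouse. Its Mfsd2a of 7.30 was the highest of the treated mice. The Mfsd2a difference was -2.65 (SE 0.42) without mouse 5 and -3.01 (SE 0.35) without mouse 4.

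**Figure D5:**
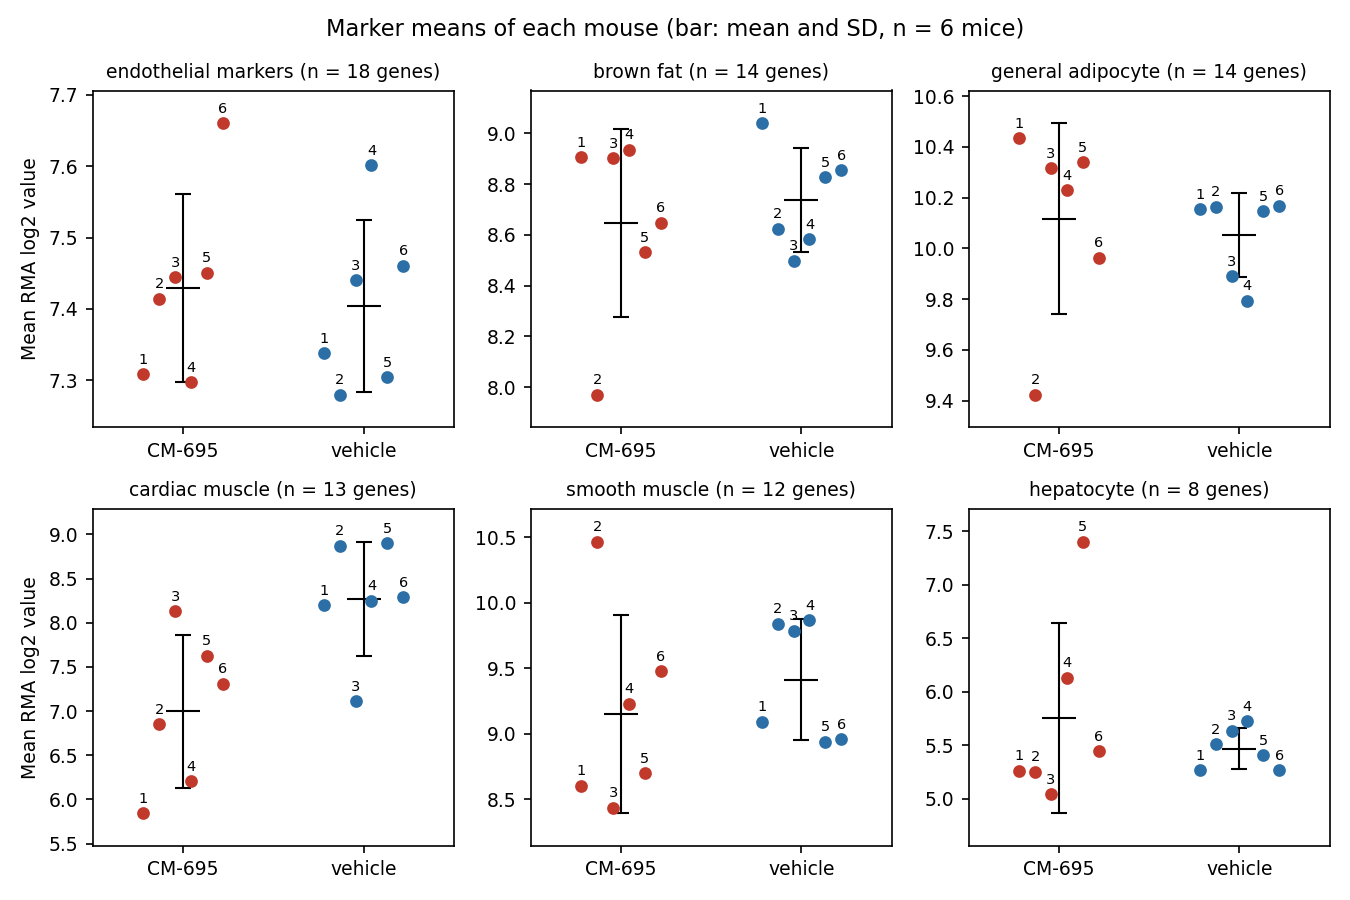
Mean RMA log2 value of 6 marker lists in each CM-695 mouse (red) and vehicle mouse (blue), numbered by mouse, with group mean and SD; each panel has its own axis. Endothelial, fat and smooth muscle means overlap between the groups, and cardiac means are lower in CM-695 mice 1, 2 and 4. CM-695 mouse 5 is highest for liver markers, followed by CM-695 mouse 4.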

How the data were processed

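RNA of aortic tissue from 12 mice was hybridised to 1 Affymetrix mouse gene array each. The deposited log2 values are RMA values per the submitters' processing notes, a method that adjusts background, scales arrays to each other and combines probes into probe sets. No software version is stated. Values carry no detection calls, and the number of mice limits the precision. Array medians lay between 4.69 and 4.74.

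Of 41345 probe sets, 23521 named 1 gene in the platform annotation. They covered 22180 genes, each represented by its brightest probe set over the 12 arrays. CM-695 minus vehicle was fitted with limma 3.58.1 in R 4.3.3 (intercept and group, two-sided, Benjamini-Hochberg over all probe sets, threshold 0.05). Correlations used exact permutation over 720 pairings. Of 334 listed genes, 312 had a probe set of their own, 6 of the list entries through an older symbol.

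Mfsd2a, its 4 partner genes and all gene lists were chosen with earlier results of these data known. Named list members were the 4 with the smallest limma p (8 for each of the first 4 lipid lists); others are said to have been chosen after their values were seen. Promoters came from RefSeq (GRCm38.p6). The fitting code was tested on simulated data. Alternatives were the replicate block, repeated quantile normalization, median centring, array weights, eBayes with trend and robust, brighter probe sets, 3 marker covariates and leaving out each mouse.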

Additional observations from a re-analysis of the deposited data

Results flagged for a closer look

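Mfsd2a itself had no mouse standing apart by Dixon's test at the 95% level, since its 2 higher CM-695 values lie together. Of 202 groups tested, 11 held 1 mouse far from the rest, and chance flags about 1 in 20 groups. CM-695 mouse 2 was low for Lpl (9.89, others 10.997 to 11.56), Slc27a2 (6.13, others 7.60 to 8.29), Slc16a1 (8.60, others 10.01 to 10.29) and the mean of the lysophospholipid supply list (5.93, others 6.15 to 6.27), and Mfsd2a in this mouse was 5.43. Fabp5 was high in CM-695 mouse 3 (8.61, others 6.97 to 7.54) and Cd163, a macrophage receptor, in CM-695 mouse 1 (6.34, others 5.72 to 5.92). Vehicle mouse 2 was low for Zfp882 (4.70, others 5.12 to 5.26) and Per3 (7.08, others 7.58 to 7.76), and it had the highest Mfsd2a. In other vehicle mice, Gdpd1 was low in mouse 1 (5.06, others 5.59 to 5.88), Tnni3 was low in mouse 3 (7.30, others 8.87 to 9.57) and Egfl7 was high in mouse 4 (6.97, others 6.50 to 6.65).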

How the results depend on the processing

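The Mfsd2a difference kept its direction under every alternative listed in the processing summary, from -2.89 to -2.73, and from -3.01 to -2.56 when 1 mouse was left out. The 64 probe sets past the limma threshold became 15 with the replicate block, 116 among brighter probe sets, and 141, 13 and 39 with the adipocyte, cardiac and endothelial covariates (22 to 98 without 1 mouse). Of the 16 lower list members 8 were counted with the block and 6 with the cardiac covariate (12 to 16 without 1 mouse), and of the 2 higher ones 1 with the cardiac covariate (2 to 3). Replicate numbers gave correlations of deviations between -0.50 and 0.35, 3 of 12 mice were closest to their own number in the other group, and the numbers were not taken as pairs.

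Without 1 mouse, r to Mfsd2a ran in CM-695 mice from 0.83 to 0.96 (Fkbp5), 0.60 to 0.84 (Dbp), -0.35 to 0.27 (Arntl) and -0.16 to 0.58 (Ucp1), and in vehicle mice from 0.82 to 0.97, -0.68 to -0.21, 0.03 to 0.88 and -0.93 to -0.75 in the same order of genes. Leaving out 1 mouse ended the call for Fkbp5 in 3 of 6 cases in CM-695 mice and 4 of 6 in vehicle mice, and for Ucp1 in 6 of 6 in vehicle mice. As rank correlations Fkbp5 (0.83 in CM-695 mice, 0.94 in vehicle mice) and Ucp1 in vehicle mice (-0.89) no longer passed. Without the 2 farthest mice Arntl (0.0014) and Ucp1 (-0.60) turned sign in CM-695 mice, and Fkbp5 (0.53 in CM-695 mice, 0.92 in vehicle mice) and Ucp1 in vehicle mice (-0.77) did not pass (exact permutation p = 0.458, 0.125 and 0.250, where 4 mice allow no p below 0.0417). Repeated quantile normalization gave -0.74 for Ucp1 in vehicle mice. The causes were not tested.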
